A study of Mus musculus with 10 samples.

Results

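The genes described here are the 45 genes of the DNA replication machinery that were measured on 10 mouse whole-genome expression arrays. They were chosen by name, as all array features whose gene symbol is 1 of the 45, and comprise the subunits of the origin recognition complex, the factors that license and fire origins, the replicative polymerases, the sliding clamp and its loader, the single-strand binding protein, the enzymes that join Okazaki fragments and 4 enzymes of nucleotide supply. All 45 were among the 20738 named genes of the array and all 45 passed the filter on dim features, as did 16650 named genes in all. The arrays compared Sertoli-like cells induced from fibroblasts (ieSCs, for induced embryonic Sertoli-like cells) with mouse embryonic fibroblasts (MEFs). RNA of ieSCs made from MEFs was on 4 arrays, 4 held RNA of ieSCs made from tail-tip fibroblasts (TTFs) of female mice, and 2 held RNA of MEFs. Every group carried the same congenic background, homo for R26-M2rtTA, the doxycycline-responsive transactivator. The ieSCs also carried the transgenes Nr5a1, Wt1, Dmrt1, Gata4 and Sox9, and the MEFs carried none of these. For every array 2 weeks were recorded, as time without doxycycline or as time in culture. No TTF array was used here, so TTF-derived ieSCs could be set only against MEFs, not against the fibroblasts they came from.

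DNA replication starts when the origin recognition complex marks an origin and Cdc6 and Cdt1 load the ring-shaped MCM helicase onto it, a step called licensing. In S phase Mcm10, Cdc45 and the GINS complex turn the loaded ring into a moving helicase. Behind it polymerase alpha-primase makes the primers, and polymerases delta and epsilon, with the clamp PCNA, copy the strands. Most of these genes are transcribed as cells enter the cycle, under E2F transcription factors, and are low in cells that have left it. Sertoli cells, the nurse cells of the seminiferous tubule, divide before and shortly after birth and stop dividing as they mature.

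Values are the deposited log2 intensities, in which a difference of 1 is a doubling of intensity, and each gene is given by its brightest feature. Differences are given ± their standard error from the fit. Genes are said to rise or fall when higher or lower than on the arrays they are set against. For TTF-derived ieSCs this is not a change from the fibroblasts they came from. The 4 arrays of an ieSC group are called 1a, 1b, 2a and 2b, and their values are listed in that order; arrays with the same number bear the same sample name in the labels, and the MEF arrays a and b share 1 name. The labels do not say whether arrays of 1 name came from separate cultures, so the p-values measure the spread between these arrays, which may be technical. Pearson correlations over all 62976 features were lowest between a MEF and an ieSC array (0.926 to 0.9408). Those within a sample name (0.9896 to 0.9966) were as high as or higher than those between names of a group (0.9878 to 0.9896). The median standard error of a difference was 0.191 against MEFs and 0.156 between the ieSC groups, which the small number of arrays limits. Of 12 fibroblast markers, 9 were lower than in MEFs in ieSCs made from MEFs (limma, adjusted p under 0.05). In ieSCs made from TTFs 10 were lower and 1 was higher. Of 12 Sertoli markers tested, 8 and 9 were higher, and 2 were lower in each ieSC group. Of all genes, 24.0% and 21.9% were lower and 27.2% and 23.3% higher. The Sertoli list included Wt1 and Sox9, which were also transgenes of the ieSCs. Sox9, a defining Sertoli factor, was lower than in MEFs in both ieSC groups, and Amh and Fshr did not pass the filter on dim features.

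Most of the replication genes were lower in ieSCs made from MEFs than in MEFs, and were not lower as a group in ieSCs made from TTFs. In MEF-derived ieSCs 31 of the 45 genes fell and 5 rose (limma, Benjamini-Hochberg adjusted p under 0.05), and the median difference from MEFs was -0.775 against 0.100 over all 16650 genes. Of all genes, 24.0% were called lower and 27.2% higher in that comparison, 51.2% either way. In TTF-derived ieSCs 13 of the 45 genes were higher than in MEFs and 3 lower, with a median difference of 0.190 against 0.060 over all genes. There 23.3% of all genes were called higher and 21.9% lower. The share of members called, 35.6%, lay below the 45.1% of all genes called either way. Set directly against each other, TTF-derived ieSCs were higher than MEF-derived ieSCs for 34 of the 45 genes and lower for 3, with a median difference of 1.184, which is 2.27-fold, against -0.045 over all genes. In that comparison 16.8% of all genes were called higher and 19.3% lower, 36.0% either way.

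The arrays themselves separated in the same way. The median of the 45 genes, each minus its MEF mean, was -0.829, -0.913, -0.738 and -0.800 on the arrays of MEF-derived ieSCs and 0.081, 0.066, 0.359 and 0.390 on those of TTF-derived ieSCs. For 38 genes all 4 arrays of MEF-derived ieSCs lay below both MEF arrays and for 6 above them, where 34.4% of all genes lay wholly below and 42.0% wholly above, 76.3% either way. For 37 genes all 4 TTF-derived arrays lay above all 4 MEF-derived ieSC arrays and for 4 below, against 22.1% and 26.2% of all genes, 48.3% either way. For 24 genes the TTF-derived arrays lay above both MEF arrays and for 7 below, against 38.4% and 33.7% of all genes, 72.1% either way. These arrays hold RNA of whole cultures, so a smaller share of cells in S phase and less RNA of these genes per cell cannot be told apart. MEFs are the control of both first comparisons, so their values stand side by side below and are not independent of each other. When the arrays of each name were averaged before the fit, which leaves 5 values and 2 residual degrees of freedom, 21 genes were lower and 4 higher in MEF-derived ieSCs, 29 were higher and 1 lower in TTF-derived against MEF-derived ieSCs, and only Tyms was higher in TTF-derived ieSCs than in MEFs. Of all genes, that averaged fit called 35.4%, 14.5% and 28.6% in these 3 comparisons. The calls lost in MEF-derived ieSCs against MEFs were those of Orc4, Mcm7, Cdc45, Gins4, Pola1, Pole2, Rfc2, Rfc3, Rfc5, Fen1 and Rrm2 (adjusted p 0.0527 to 0.214), and between the ieSC groups those of Orc4, Pold3, Pcna, Rfc2, Rfc3, Rfc5 and Rrm1 (0.0544 to 0.173). At an unadjusted p of 0.05 the averaged fit gave 11 members higher and 2 lower in TTF-derived ieSCs against MEFs. The share of all genes at that threshold was not counted for the averaged fit. In the fit on all arrays, 15 members were higher and 4 lower at it, where 4473 of all 16650 genes were higher and 4114 lower.

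**Figure D1:**
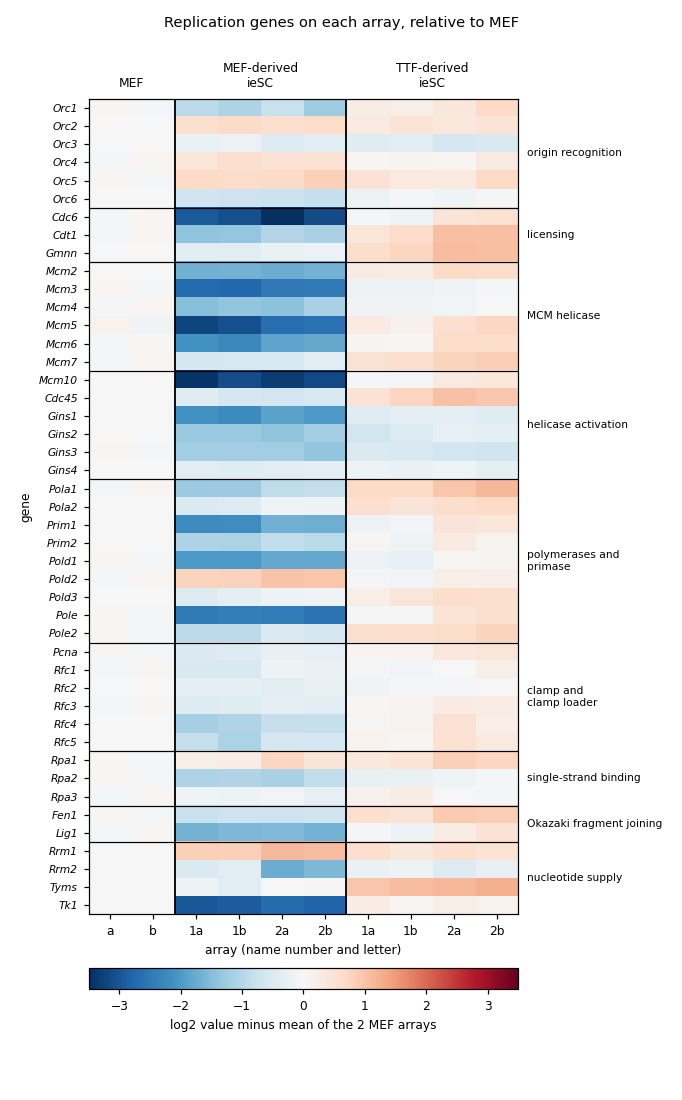
Each row is 1 of the 45 replication genes, ordered by role, and each column is 1 of the 10 arrays; the colour is the log2 intensity minus the mean of the 2 MEF arrays. The 4 columns of MEF-derived ieSCs are below the MEF mean for most rows (column medians -0.738 to -0.913), while those of TTF-derived ieSCs are near or above it (0.066 to 0.390).

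**Figure D2:**
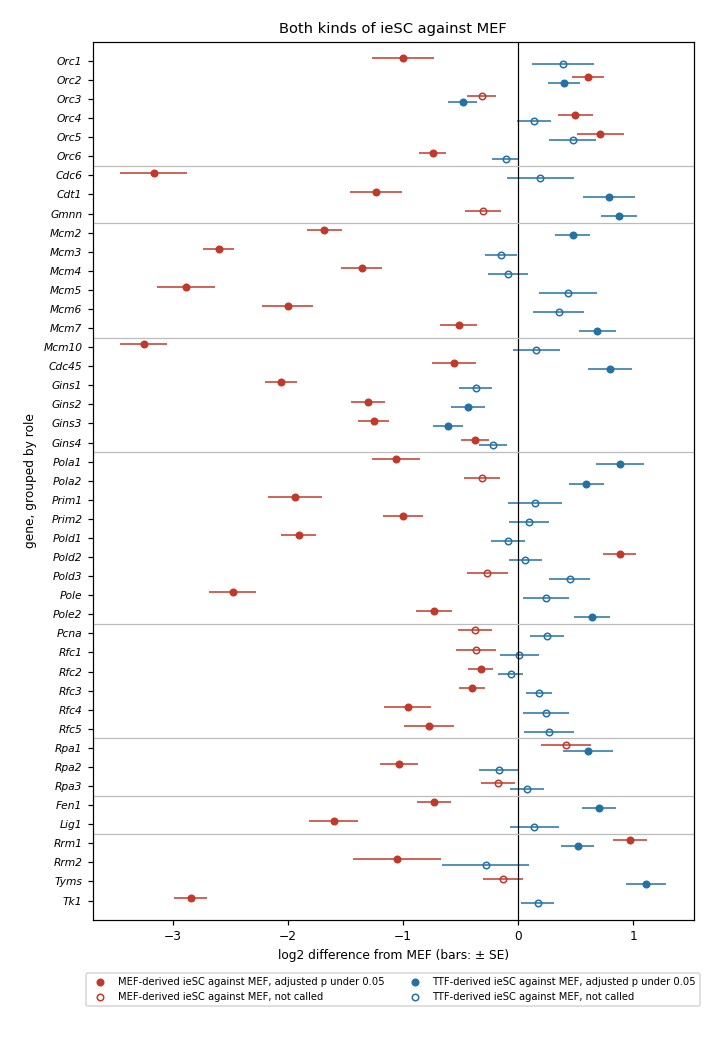
Each point is a log2 difference of 1 gene with its standard error, for MEF-derived ieSCs against MEFs and TTF-derived ieSCs against MEFs, with genes ordered by role and filled points for an adjusted p under 0.05. Mcm10, Cdc6, Mcm5 and Tk1 lie lowest in MEF-derived ieSCs. Rrm1, Pold2, Orc5, Orc2 and Orc4 are called higher than in MEFs there, and Rpa1 lies higher but is not called.

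The promoters of these genes are shown because many of them hold the same letters. RefSeq (GRCm38.p6) gave 45 start sites for 37 of the 45 genes, each with a window of 300 bases, 250 before the start and 50 after it. The E2F motif was searched on both strands as TTTCGCGC, TTTGGCGC, TTTCCCGC and TTTGCCGC, together with the shorter core GCGGGAA, which overlaps TTTCCCGC when read on the other strand. At least 1 of the 4 longer forms stood in 33.3% of the members' windows and in 2.27% of all 32841 windows of the reference table. With the core included the shares were 46.7%, or 21 windows of 20 genes, and 5.72%. In the sequences below, read 5′ to 3′ along each gene's strand and ending at the base before the start, capitals mark these letters. All are of genes with a match. The first 5 belong to genes that fell in MEF-derived ieSCs, and Rrm1 rose there.
Mcm5, chr8:75109349-75109508, plus strand: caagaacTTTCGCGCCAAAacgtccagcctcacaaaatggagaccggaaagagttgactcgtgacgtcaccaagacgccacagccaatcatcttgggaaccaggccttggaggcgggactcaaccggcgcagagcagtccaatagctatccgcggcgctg
Mcm6, chr1:128359706-128359865, minus strand: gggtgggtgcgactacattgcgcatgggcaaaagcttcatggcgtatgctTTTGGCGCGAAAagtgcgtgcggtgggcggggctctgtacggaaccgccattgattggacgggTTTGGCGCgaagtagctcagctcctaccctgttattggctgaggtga
Cdc6, chr11:98907991-98908150, plus strand: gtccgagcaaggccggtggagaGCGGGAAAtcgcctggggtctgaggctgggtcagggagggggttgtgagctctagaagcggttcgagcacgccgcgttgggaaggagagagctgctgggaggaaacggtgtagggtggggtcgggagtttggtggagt
Orc1, chr4:108579294-108579453, plus strand: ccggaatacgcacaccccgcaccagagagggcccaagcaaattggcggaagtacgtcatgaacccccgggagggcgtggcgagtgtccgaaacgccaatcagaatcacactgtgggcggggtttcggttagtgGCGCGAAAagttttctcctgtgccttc
Pola1, chrX:93632156-93632315, minus strand: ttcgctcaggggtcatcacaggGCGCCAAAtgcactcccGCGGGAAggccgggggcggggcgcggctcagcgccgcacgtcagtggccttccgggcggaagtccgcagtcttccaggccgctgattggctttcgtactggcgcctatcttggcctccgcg
Rrm1, chr7:102441535-102441694, plus strand: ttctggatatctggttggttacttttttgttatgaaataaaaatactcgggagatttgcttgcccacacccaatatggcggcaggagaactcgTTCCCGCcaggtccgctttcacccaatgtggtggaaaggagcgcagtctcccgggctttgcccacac

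Mcm5 held TTTCGCGC 153 bases before the start, overlapped by TTTGGCGC on the other strand. Mcm6 held TTTGGCGC 110 bases before the start, overlapped by TTTCGCGC on the other strand, and a further TTTGGCGC at 47. The match of Cdc6 lay 138 bases before its start and that of Orc1 at 27. Pola1 held a longer form at 138 bases before the start and the core at 121, with another core farther out at 169. Of the 24 genes with a window that fell in MEF-derived ieSCs, 16 held the longer letters or the core. Mcm10 and Tk1, among the largest falls, held neither. Of the 5 genes that rose, 2 held a match, Orc4 and Rrm1, both with the core alone. Of the 8 that were not called, 2 held a match, Orc3 and Pold3, both with a longer form and the core. The mitosis genes described further on held other letters more often. TTTGAA, the cell cycle homology region known from genes of mitosis, stood in 64.3% of 14 mitosis windows, 11.1% of the members' windows and 17.9% of all windows. The E2F letters with the core stood in 7.14% of the mitosis windows. CCAAT, the letters of the factor NF-Y, stood in 85.7% of mitosis windows, 55.6% of the members' windows and 37.4% of all, and the GC box GGGCGG in 78.6%, 71.1% and 35.7%. A match is a description of the letters in a window, not a site shown to be bound, and a window with no match shows only that these letters are not in it.

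**Figure D3:**
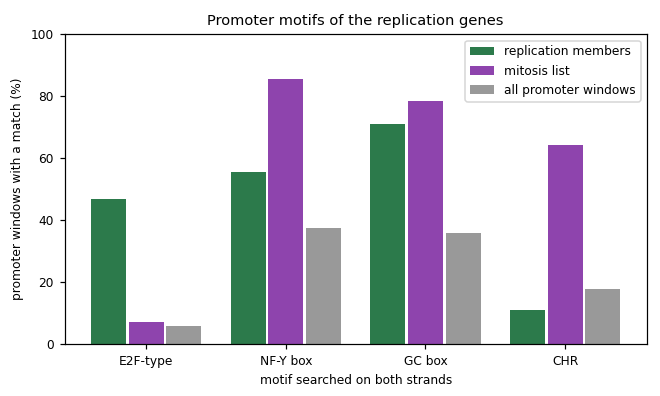
Bars give the percent of 300-base promoter windows that hold each motif, for the 45 windows of replication genes, the 14 windows of mitosis genes and all 32841 windows. The E2F letters with the core stand in 46.7% of the replication windows against 5.72% of all windows, and the cell cycle homology region in 64.3% of the mitosis windows against 11.1% of the replication windows.

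The 6 subunits of the origin recognition complex did not move as a unit. Orc1, the subunit known to be made and degraded with the cell cycle, and Orc6 fell in MEF-derived ieSCs, while Orc2, Orc4 and Orc5, subunits of the core that stays present through the cycle, rose. Orc1 stood at 6.40 and 6.33 in MEFs, at 5.45, 5.28, 5.60 and 5.12 in MEF-derived ieSCs and at 6.62, 6.57, 6.78 and 7.06 in TTF-derived ieSCs, with no overlap between any groups. It fell by 1.00 ± 0.27 against MEFs in MEF-derived ieSCs (adjusted p = 0.0116). It was higher by 1.39 ± 0.22 in TTF-derived than in MEF-derived ieSCs (adjusted p = 0.00105). The difference of TTF-derived ieSCs from MEFs, 0.39 ± 0.27, did not pass. The Orc1 values of MEF-derived ieSCs lay below the median of all features on each array (5.759 to 5.782). How far the size of its fall depends on the treatment of background was not tested. Orc6 stood at 13.40 and 13.40 in MEFs, 12.69, 12.68, 12.66 and 12.60 in MEF-derived ieSCs and 13.21, 13.34, 13.25 and 13.37 in TTF-derived ieSCs. All MEF-derived ieSC arrays of Orc6 were below all others, by 0.74 ± 0.12 when it fell against MEFs (adjusted p = 5.61e-04).

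The core subunits went the other way. Orc2 was at 9.81 and 9.77 in MEFs, 10.35, 10.47, 10.35 and 10.43 in MEF-derived ieSCs and 10.09, 10.27, 10.15 and 10.23 in TTF-derived ieSCs, so both ieSC groups lay above MEFs on every array. It rose by 0.61 ± 0.14 in MEF-derived ieSCs (adjusted p = 0.00475) and by 0.40 ± 0.14 in TTF-derived ieSCs (adjusted p = 0.0411). That second call was lost in 8 of 14 leave-outs, with adjusted p from 0.0558 to 0.0926: either MEF array, TTF-derived 1b, 2a, 2b or both arrays named 2, or MEF-derived 2a or 2b. Orc4 was at 9.42 and 9.53 in MEFs, 9.89, 10.03, 9.99 and 9.98 in MEF-derived ieSCs and 9.55, 9.56, 9.56 and 9.78 in TTF-derived ieSCs, and the TTF-derived arrays lay between the other groups. It rose by 0.50 ± 0.15 in MEF-derived ieSCs (adjusted p = 0.0198, and 0.0557 without MEF array a). Its fall by 0.36 ± 0.12 in TTF-derived against MEF-derived ieSCs had an adjusted p of 0.0446 and was lost in 11 of 14 leave-outs (0.0538 to 0.102), all but those of MEF-derived 1a, TTF-derived 2b and both TTF-derived arrays named 2. Orc5 was at 8.76 and 8.69 in MEFs, 9.43, 9.37, 9.41 and 9.57 in MEF-derived ieSCs and 9.24, 9.07, 9.07 and 9.44 in TTF-derived ieSCs, where the ieSC groups overlapped. Its rise of 0.71 ± 0.21 in MEF-derived ieSCs passed (adjusted p = 0.0163) and the difference of 0.47 ± 0.21 in TTF-derived ieSCs did not. Orc3, also of the core, was at 12.70 and 12.74 in MEFs, 12.50, 12.50, 12.26 and 12.35 in MEF-derived ieSCs and 12.29, 12.35, 12.12 and 12.19 in TTF-derived ieSCs by its brighter feature. By that feature it fell by 0.48 ± 0.13 in TTF-derived ieSCs (adjusted p = 0.0119), but its dimmer feature was higher than in MEFs, by 0.352 there and by 0.481 in MEF-derived ieSCs, so no direction could be given for Orc3.

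Of the 3 licensing genes, the loaders Cdc6 and Cdt1 fell in MEF-derived ieSCs, and all 3 were higher in TTF-derived than in MEF-derived ieSCs. Cdc6, the ATPase that joins the origin recognition complex to load the helicase, stood at 7.52 and 7.68 in MEFs, at 4.67, 4.53, 4.07 and 4.47 in MEF-derived ieSCs and at 7.53, 7.45, 8.05 and 8.15 in TTF-derived ieSCs. The MEF-derived ieSC arrays were far below the rest, and the other groups overlapped. Cdc6 fell by 3.17 ± 0.29 against MEFs (adjusted p = 1.56e-05), and was higher by 3.36 ± 0.24 in TTF-derived than in MEF-derived ieSCs (adjusted p = 8.01e-06). Its values in MEF-derived ieSCs lay below the 40th percentile of all features on each array (4.988 to 5.023), among the dimmest features, and how far the size of that fall depends on the treatment of background was not tested. Cdt1, the other loader, stood at 11.88 and 12.04 in MEFs, 10.56, 10.61, 10.93 and 10.82 in MEF-derived ieSCs and 12.39, 12.60, 13.02 and 13.01 in TTF-derived ieSCs, and no groups overlapped. It fell by 1.23 ± 0.22 in MEF-derived ieSCs (adjusted p = 0.00137) and rose by 0.79 ± 0.22 in TTF-derived ieSCs (adjusted p = 0.0174, 0.0503 without MEF array a and 0.0565 without both TTF-derived arrays named 2).

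Gmnn encodes geminin, the inhibitor that holds Cdt1 and prevents a second licensing in the same cycle. Its brighter feature stood at 9.09 and 9.06 in MEFs, 8.69, 8.70, 8.83 and 8.86 in MEF-derived ieSCs and 9.70, 9.83, 10.15 and 10.13 in TTF-derived ieSCs, again with no overlap. Gmnn rose by 0.88 ± 0.16 in TTF-derived ieSCs against MEFs (adjusted p = 0.00141), and the difference of -0.31 ± 0.16 in MEF-derived ieSCs did not pass, though it did without both TTF-derived arrays named 1 (0.0252) or named 2 (0.0418). The features of Gmnn disagreed in size. The dimmer 1 was at -1.516 against MEFs in MEF-derived ieSCs, which passed in the limma fit feature by feature (adjusted p = 0.00864). In TTF-derived ieSCs it was at 0.035 (adjusted p = 0.954). Its mean in MEF-derived ieSCs, 4.518, lay below the 40th percentile of all features on each array (4.988 to 5.023). Both features were higher in TTF-derived than in MEF-derived ieSCs, by 1.184 and 1.552.

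All 6 subunits of the MCM helicase, the ring that unwinds DNA at the fork, fell in MEF-derived ieSCs, with a median difference of -1.844, or 3.59-fold lower. All 6 were higher in TTF-derived than in MEF-derived ieSCs, with a median difference of 2.258, or 4.78-fold. Mcm5 stood at 11.96 and 11.73 in MEFs, at 8.62, 8.77, 9.19 and 9.24 in MEF-derived ieSCs and at 12.13, 11.99, 12.44 and 12.56 in TTF-derived ieSCs. It fell by 2.89 ± 0.25 in MEF-derived ieSCs (adjusted p = 1.12e-05), 7.4-fold lower, and the TTF-derived arrays, all above both MEF arrays, gave 0.43 ± 0.25, which did not pass. Mcm3 was at 13.33 and 13.20 in MEFs, 10.56, 10.52, 10.77 and 10.80 in MEF-derived ieSCs and 13.05, 13.06, 13.12 and 13.22 in TTF-derived ieSCs, so MEFs and TTF-derived ieSCs overlapped. It fell by 2.60 ± 0.14 (adjusted p = 4.01e-07), and its second feature gave -2.597. Mcm6, at 14.65 and 14.74 in MEFs, 12.57, 12.45, 12.85 and 12.90 in MEF-derived ieSCs and 14.79, 14.76, 15.35 and 15.32 in TTF-derived ieSCs, fell by 2.00 ± 0.22 (adjusted p = 5.44e-05).

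The other 3 subunits of the ring fell less. Mcm2 and Mcm4 fell by 1.68 ± 0.15 and 1.36 ± 0.18, and the fall of Mcm7, -0.52 ± 0.16 (adjusted p = 0.0218), was lost without MEF array b (0.061) and without both MEF-derived ieSC arrays named 1 (0.0644). In TTF-derived ieSCs Mcm7 rose against MEFs by 0.69 ± 0.16 (adjusted p = 0.0062). Mcm2 rose there by 0.47 ± 0.15 (adjusted p = 0.028), a call lost without MEF array b (0.0677), TTF-derived array 2b (0.0505) or both TTF-derived arrays named 2 (0.0636, with a difference of 0.28). The remaining 4 subunits lay between -0.150 and 0.434 of MEFs and did not pass.

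All 6 genes that activate the helicase fell in MEF-derived ieSCs, with a median difference of -1.283. Mcm10, which helps the loaded ring to open and fire, stood at 10.26 and 10.29 in MEFs, 6.84, 7.17, 6.96 and 7.12 in MEF-derived ieSCs and 10.25, 10.25, 10.60 and 10.64 in TTF-derived ieSCs, and fell by 3.25 ± 0.20 (adjusted p = 1.22e-06), 9.54-fold. The MEF-derived ieSC arrays of Mcm10 lay more than 3 log2 units below every other array, and MEFs and TTF-derived ieSCs overlapped. Cdc45, a subunit of the active helicase, stood at 6.99 and 6.998 in MEFs, 6.57, 6.40, 6.33 and 6.44 in MEF-derived ieSCs and 7.50, 7.74, 8.01 and 7.94 in TTF-derived ieSCs. Its groups did not overlap, and it rose by 0.80 ± 0.19 in TTF-derived ieSCs (adjusted p = 0.00689). Its fall by 0.56 ± 0.19 in MEF-derived ieSCs (adjusted p = 0.0332) was lost in 6 of 14 leave-outs (0.0526 to 0.0826), those of either MEF array, MEF-derived 1b or 2a, TTF-derived 2b and both MEF-derived arrays named 2.

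The 4 GINS subunits, which hold Cdc45 to the ring, lay below both MEF arrays on every TTF-derived array, and Gins2 and Gins3 fell there. Gins1 stood at 10.26 and 10.27 in MEFs, 8.13, 8.03, 8.39 and 8.25 in MEF-derived ieSCs and 9.85, 9.94, 9.94 and 9.85 in TTF-derived ieSCs, with the TTF-derived arrays between the others. It fell by 2.06 ± 0.14 in MEF-derived ieSCs (adjusted p = 2.34e-06) and was at -0.37 ± 0.14 in TTF-derived ieSCs, which did not pass. Gins3 stood at 14.29 and 14.19 in MEFs, 13.04, 13.01, 13.03 and 12.86 in MEF-derived ieSCs and 13.73, 13.71, 13.56 and 13.54 in TTF-derived ieSCs, in the same order and without overlap. It fell by 1.26 ± 0.13 in MEF-derived ieSCs (adjusted p = 3.75e-05) and by 0.61 ± 0.13 in TTF-derived ieSCs (adjusted p = 0.00416). Gins2 fell by 1.31 ± 0.15 and 0.44 ± 0.15, and the second of these (adjusted p = 0.0362) was lost in 6 of 14 leave-outs (0.0501 to 0.0781), those of either MEF array, MEF-derived 1a or 1b, TTF-derived 2b and both TTF-derived arrays named 1. Gins4 fell by 0.37 ± 0.12 in MEF-derived ieSCs (adjusted p = 0.0262), lost without MEF array a (0.0505), MEF array b (0.0575) or MEF-derived array 2a (0.0529). The difference of Gins4 between the ieSC groups, 0.16 ± 0.10, did not pass.

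**Figure D4:**
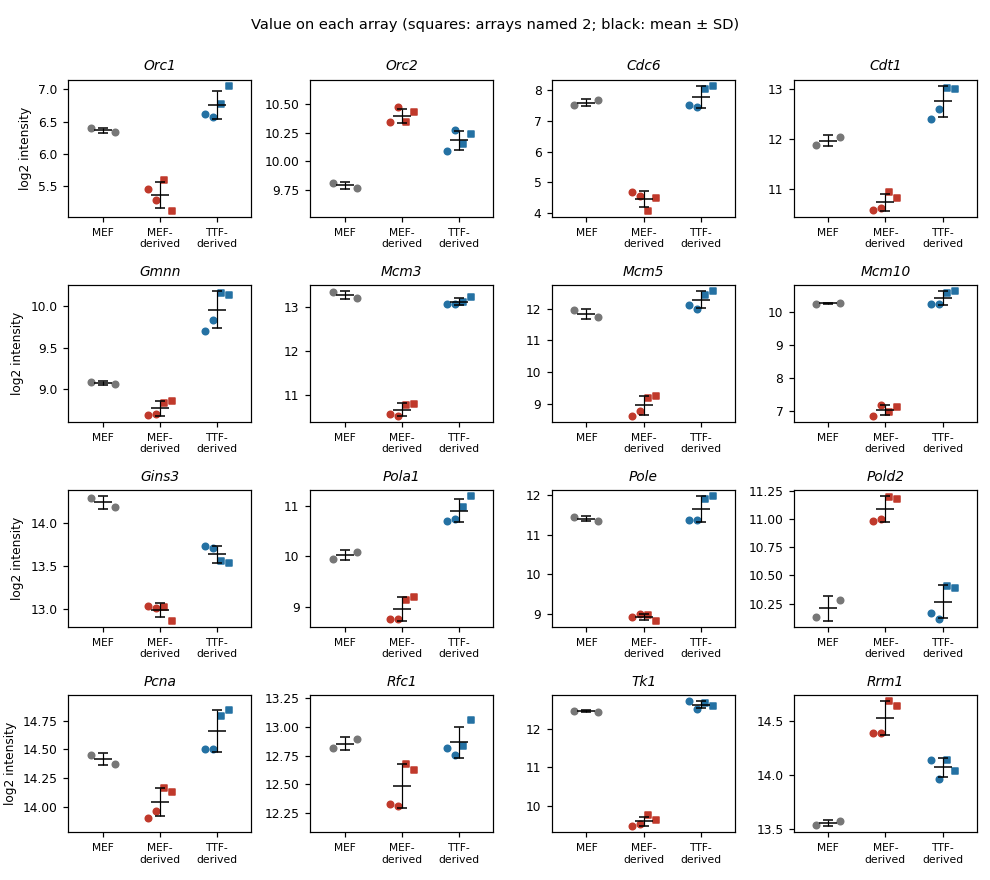
Log2 intensity of 16 replication genes on each of the 10 arrays by group; points are arrays, squares are arrays named 2, and bars are the group mean ± SD. Mcm10, Cdc6, Mcm5 and Tk1 are low on all 4 arrays of MEF-derived ieSCs, Gins3 is low in both ieSC groups, and Rrm1 and Pold2 are highest in MEF-derived ieSCs.

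Of the 9 polymerase and primase genes 6 fell in MEF-derived ieSCs and Pold2 alone rose. All 9 differed between the ieSC groups, 8 of them higher in TTF-derived ieSCs. Pole, the catalytic subunit of the leading-strand polymerase epsilon, stood at 11.46 and 11.36 in MEFs, 8.93, 8.99, 8.97 and 8.82 in MEF-derived ieSCs and 11.37, 11.37, 11.89 and 11.97 in TTF-derived ieSCs. It fell by 2.48 ± 0.20 in MEF-derived ieSCs (adjusted p = 6.96e-06), and its groups overlapped only between MEFs and TTF-derived ieSCs. A second, dimmer feature of Pole gave -1.201 with an adjusted p of 0.0801. Prim1, the catalytic primase subunit that lays the RNA primers, stood at 11.97 and 12.02 in MEFs, 9.80, 9.81, 10.31 and 10.30 in MEF-derived ieSCs and 11.83, 11.90, 12.45 and 12.39 in TTF-derived ieSCs. Prim1 fell by 1.94 ± 0.23 in MEF-derived ieSCs (adjusted p = 9.88e-05); in both ieSC groups its arrays named 2 were above those named 1. Pola1, the catalytic subunit of polymerase alpha that extends the primers, stood at 9.95 and 10.09 in MEFs, 8.76, 8.76, 9.14 and 9.20 in MEF-derived ieSCs and 10.71, 10.73, 10.99 and 11.19 in TTF-derived ieSCs. No groups of Pola1 overlapped, and it fell by 1.06 ± 0.21 in MEF-derived (adjusted p = 0.00216) and rose by 0.88 ± 0.21 in TTF-derived ieSCs (adjusted p = 0.00685). With names averaged neither call held (0.0527 and 0.0889).

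Pold2, an accessory subunit of the lagging-strand polymerase delta, was the exception. It stood at 10.13 and 10.29 in MEFs, 10.98, 11.00, 11.20 and 11.18 in MEF-derived ieSCs and 10.17, 10.11, 10.40 and 10.39 in TTF-derived ieSCs. The MEF-derived ieSC arrays were the highest, and MEFs and TTF-derived ieSCs overlapped. It rose by 0.88 ± 0.14 in MEF-derived ieSCs (adjusted p = 7.35e-04), while Pold1, the catalytic subunit of the same enzyme, fell by 1.91 ± 0.15 (adjusted p = 5.61e-06). Pold3, another accessory subunit, was at -0.27 ± 0.18 and did not pass in either comparison with MEFs, but was higher by 0.71 ± 0.14 in TTF-derived than in MEF-derived ieSCs (adjusted p = 0.00394). Prim2, the second primase subunit, fell by 1.00 ± 0.17 in MEF-derived ieSCs and Pole2, the second subunit of epsilon, by 0.73 ± 0.16. Pole2 rose by 0.64 ± 0.16 in TTF-derived ieSCs, and so did Pola2, the second subunit of alpha, by 0.59 ± 0.15 (adjusted p = 0.0109), where its difference in MEF-derived ieSCs, -0.32 ± 0.15, did not pass.

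The clamp and its loader changed by less than the helicase. Of these 6 genes 4 fell in MEF-derived ieSCs, with a median difference of -0.387. Limma called 0 of 6 in TTF-derived ieSCs against MEFs, and 0 had an unadjusted p under 0.05. Between the ieSC groups 5 of 6 were higher in TTF-derived ieSCs, with a median of 0.6. Rfc4, a small subunit of the loader, stood at 11.57 and 11.53 in MEFs, 10.39, 10.48, 10.75 and 10.72 in MEF-derived ieSCs and 11.60, 11.68, 12.09 and 11.78 in TTF-derived ieSCs, and fell by 0.96 ± 0.20 in MEF-derived ieSCs (adjusted p = 0.00319). Rfc5 stood at 12.58 and 12.55 in MEFs, 11.74, 11.46, 11.98 and 11.99 in MEF-derived ieSCs and 12.69, 12.63, 13.09 and 12.91 in TTF-derived ieSCs, and fell by 0.78 ± 0.22 (adjusted p = 0.0148). The MEF-derived arrays of both were the lowest, and the TTF-derived arrays were above both MEF arrays. Pcna, the clamp itself, stood at 14.45 and 14.38 in MEFs, 13.90, 13.96, 14.16 and 14.13 in MEF-derived ieSCs and 14.50, 14.50, 14.79 and 14.85 in TTF-derived ieSCs. Its groups did not overlap, yet only the difference between the ieSC groups passed, 0.62 ± 0.12 (adjusted p = 0.00343, and 0.0915 with names averaged), and that against MEFs in MEF-derived ieSCs was -0.37 ± 0.15 (adjusted p = 0.0613). That last difference passed without both arrays of a TTF-derived name (0.0235 and 0.023) and without both MEF-derived arrays named 2 (0.0418). Rfc3 fell by 0.40 ± 0.11 in MEF-derived ieSCs and was higher by 0.58 ± 0.09 in TTF-derived than in MEF-derived ieSCs.

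The calls of Rfc2 were fragile. It fell by 0.33 ± 0.11 in MEF-derived ieSCs (adjusted p = 0.0305), lost without MEF array a (0.0749), MEF-derived 1b (0.0503) or 2a (0.0566), TTF-derived 2a (0.0524) or both MEF-derived arrays named 1 (0.061). Its difference between the ieSC groups, 0.26 ± 0.09 (adjusted p = 0.0438), was lost in 11 of 14 leave-outs (0.0596 to 0.11), all but those of MEF-derived 2b, TTF-derived 1a and both TTF-derived arrays named 1. Rfc1, the large subunit of the loader, passed in no comparison, with -0.37 ± 0.17 against MEFs for MEF-derived ieSCs and 0.01 ± 0.17 for TTF-derived ones.

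The 3 subunits of the single-strand binding protein differed among themselves. Rpa2, the middle subunit, stood at 10.20 and 10.07 in MEFs, 9.04, 9.07, 8.99 and 9.28 in MEF-derived ieSCs and 9.89, 9.90, 9.98 and 10.09 in TTF-derived ieSCs. It fell by 1.04 ± 0.17 in MEF-derived ieSCs (adjusted p = 7.08e-04), all of whose arrays were below the rest. Rpa1, the large subunit that grips the DNA, stood at 14.08 and 14.02 in MEFs, 14.27, 14.31, 14.81 and 14.49 in MEF-derived ieSCs and 14.43, 14.54, 14.88 and 14.80 in TTF-derived ieSCs, and every ieSC array was above both MEF arrays. Its rise of 0.61 ± 0.22 in TTF-derived ieSCs (adjusted p = 0.0491) was lost in 9 of 14 leave-outs (0.0507 to 0.156): either MEF array, MEF-derived 1a, 1b or 2b, and TTF-derived 1b, 2a, 2b or both arrays named 2. The small subunit Rpa3 stood at 12.72 and 12.78 in MEFs, 12.60, 12.57, 12.67 and 12.47 in MEF-derived ieSCs and 12.91, 13.002, 12.74 and 12.68 in TTF-derived ieSCs, and passed in no comparison.

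Both enzymes that finish the lagging strand fell in MEF-derived ieSCs. Fen1, the nuclease that trims the flap of each Okazaki fragment, stood at 12.43 and 12.36 in MEFs, 11.60, 11.68, 11.66 and 11.70 in MEF-derived ieSCs and 12.95, 12.88, 13.31 and 13.26 in TTF-derived ieSCs, with no overlap of groups. It fell by 0.73 ± 0.15 in MEF-derived (adjusted p = 0.0026) and rose by 0.70 ± 0.15 in TTF-derived ieSCs (adjusted p = 0.00369). With names averaged neither call held (0.0632 and 0.0781). Lig1, the ligase that seals the fragments, stood at 12.64 and 12.72 in MEFs, 11.03, 11.11, 11.15 and 11.03 in MEF-derived ieSCs and 12.63, 12.51, 12.96 and 13.20 in TTF-derived ieSCs. It fell by 1.60 ± 0.21 in MEF-derived ieSCs (adjusted p = 1.92e-04), and MEFs and TTF-derived ieSCs overlapped.

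The 4 enzymes of nucleotide supply showed 4 different patterns. Tk1, the thymidine kinase of the salvage route, stood at 12.46 and 12.43 in MEFs, 9.48, 9.52, 9.75 and 9.63 in MEF-derived ieSCs and 12.71, 12.51, 12.66 and 12.58 in TTF-derived ieSCs. It fell by 2.85 ± 0.15 in MEF-derived ieSCs (adjusted p = 3.34e-07), 7.19-fold, and was higher by 3.02 ± 0.12 in TTF-derived than in MEF-derived ieSCs (adjusted p = 1.91e-07). Tyms, the thymidylate synthase of the route that makes the base anew, stood at 7.55 and 7.55 in MEFs, 7.39, 7.14, 7.55 and 7.60 in MEF-derived ieSCs and 8.53, 8.63, 8.70 and 8.79 in TTF-derived ieSCs. It rose by 1.11 ± 0.18 in TTF-derived ieSCs (adjusted p = 6.91e-04), and at -0.13 ± 0.18 in MEF-derived ieSCs it did not pass.

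The subunits of ribonucleotide reductase, the enzyme that makes deoxynucleotides, moved apart. Rrm1, the large subunit, stood at 13.54 and 13.57 in MEFs, 14.39, 14.39, 14.68 and 14.64 in MEF-derived ieSCs and 14.14, 13.96, 14.14 and 14.04 in TTF-derived ieSCs, highest in MEF-derived ieSCs on every array. It rose by 0.97 ± 0.15 in MEF-derived (adjusted p = 4.20e-04) and by 0.52 ± 0.15 in TTF-derived ieSCs (adjusted p = 0.0169). The difference between the ieSC groups, -0.46 ± 0.12 (adjusted p = 0.0151), was lost without both MEF-derived arrays named 2 (0.073). Rrm2, the small subunit that is made in S phase, stood at 14.14 and 14.18 in MEFs, 13.65, 13.79, 12.41 and 12.58 in MEF-derived ieSCs and 13.92, 13.99, 13.72 and 13.88 in TTF-derived ieSCs. The fall of Rrm2 by 1.05 ± 0.38 in MEF-derived ieSCs (adjusted p = 0.0433) differed by name: the arrays named 2 minus those named 1 gave -1.226. The fall was at -0.44 without both arrays named 2 and at -1.666 without both named 1. That call was lost in 11 of 14 leave-outs (0.0531 to 0.0859), all but those of MEF-derived 1b and of both arrays named 1 or both named 2 of MEF-derived ieSCs. Between the ieSC groups Rrm2 differed by 0.77 ± 0.31, which did not pass (adjusted p = 0.0841) but did without both MEF-derived arrays named 1 (0.000332).

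The names also differed for the genes as a whole. In TTF-derived ieSCs 40 of the 45 genes had a higher mean on the arrays named 2 than on those named 1, with a median difference of 0.245, against -0.001 over all genes. For 33 of them both arrays named 2 lay above both named 1, and for 4 below, where 29.9% of all genes lay wholly above and 30.5% wholly below. In MEF-derived ieSCs the median difference was 0.142 against 0 over all genes, with 24 genes wholly above and 4 below (30.0% and 31.5% of all genes). Without the TTF-derived arrays named 2, the median difference of TTF-derived ieSCs from MEFs was 0.079, and without those named 1 it was 0.402. The median difference between the ieSC groups was 0.995 and 1.308 under the same leave-outs.

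The members had 54 features on the array, of which 53 passed the filter. Fitted feature by feature, 35 were lower and 7 higher in MEF-derived ieSCs, 14 higher and 3 lower in TTF-derived ieSCs, and 39 higher and 4 lower in TTF-derived against MEF-derived ieSCs. Of all 42617 features, 46.3%, 40.5% and 33.8% were called in these comparisons. Among the 8 genes with more than 1 kept feature, the features had the same sign for 7, 7 and 8 genes in the same order, and Orc3 was the exception in both comparisons with MEFs.

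Other genes of replication and the cell cycle were read from lists of their own. Of 49 further replication genes tested, 24 fell and 6 rose in MEF-derived ieSCs (median -0.409). In TTF-derived ieSCs 13 rose and 1 fell against MEFs (median 0.283). Between the ieSC groups 32 were higher and 2 lower in TTF-derived ieSCs (median 0.790). In that order these calls were 61.2%, 28.6% and 69.4% of the list, against 51.2%, 45.1% and 36.0% of all genes. Top2a, the topoisomerase that untangles replicated DNA, was at 10.30 and 10.21 in MEFs, 5.57, 5.37, 5.36 and 5.50 in MEF-derived ieSCs and 11.23, 11.10, 11.44 and 11.34 in TTF-derived ieSCs, higher in the last by 5.83 ± 0.14 than in MEF-derived ieSCs (adjusted p = 2.77e-08). The Top2a values of MEF-derived ieSCs lay below the median of all features on each array (5.759 to 5.782). How far the size of its difference depends on the treatment of background was not tested. Exo1, a nuclease of repair, and Dscc1, of an alternative clamp loader, were higher in TTF-derived than in MEF-derived ieSCs by 4.64 ± 0.16 and 3.80 ± 0.14. Of 20 genes of repair at forks, 10 fell and 2 rose in MEF-derived ieSCs, 60% called against 51.2% of all genes. Between the ieSC groups 9 were higher and 1 lower in TTF-derived ieSCs, 50% called against 36.0% of all genes. The median of that list between the ieSC groups was only 0.188. Rad51ap1, Fanci and Fanca, of homologous repair and crosslink repair, were higher in TTF-derived ieSCs by 4.08 ± 0.14, 3.38 ± 0.15 and 1.94 ± 0.14.

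Genes of mitosis had larger median differences than the replication genes. All 16 tested fell in MEF-derived ieSCs against MEFs (median -3.334), where 24.0% of all genes were called lower. All 16 were higher in TTF-derived than in MEF-derived ieSCs (median 4.283), against 16.8% of all genes. In TTF-derived ieSCs 12 of the 16 rose against MEFs (median 0.890), where 23.3% of all genes were called higher. Mki67, a marker of cycling cells, was at 13.02 and 13.15 in MEFs, 6.19, 6.04, 6.86 and 6.87 in MEF-derived ieSCs and 13.52, 13.59, 14.09 and 14.29 in TTF-derived ieSCs. Between the ieSC groups Mki67 differed by 7.39 ± 0.26, the mitotic kinase Plk1 by 4.69 ± 0.12 and the kinetochore motor Cenpe by 4.35 ± 0.14. Of 16 genes of the G1/S switch, 10 fell and 2 rose in MEF-derived ieSCs, 75% called against 51.2% of all genes. In TTF-derived ieSCs 5 fell and 2 rose against MEFs, 43.8% called, near the 45.1% of all genes. Between the ieSC groups 9 were higher and 3 lower in TTF-derived ieSCs, 75% called against 36.0% of all genes. Ccna2, cyclin A2 of S phase, was higher in TTF-derived than in MEF-derived ieSCs by 5.58 ± 0.17. The repressors E2f8 and E2f7 were higher by 3.81 ± 0.20 and 3.43 ± 0.23.

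**Figure D5:**
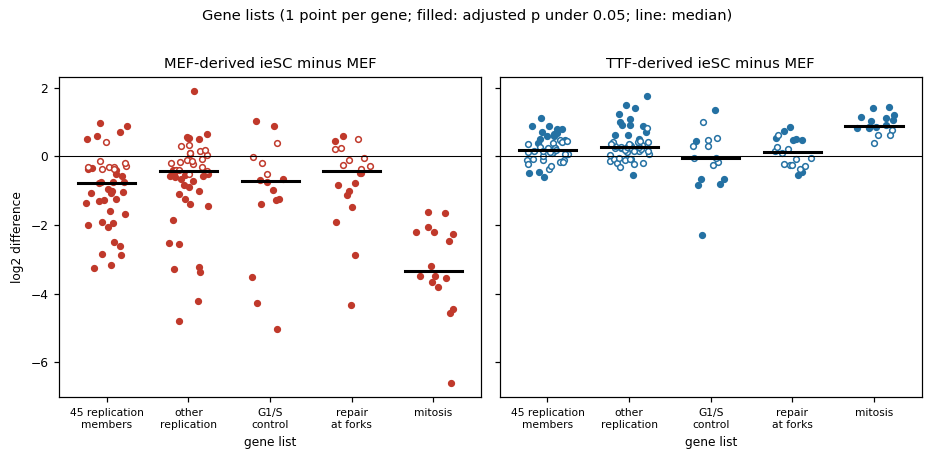
Log2 differences from MEFs of the genes in 5 lists, for MEF-derived and TTF-derived ieSCs; each point is a gene, filled where the adjusted p was under 0.05, and the line is the list's median. Mitosis genes have medians of -3.334 and 0.890, replication genes -0.775 and 0.190, and other replication genes -0.409 and 0.283.

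Markers of macrophages moved with the comparisons against MEFs. All 12 were lower in ieSCs made from MEFs and 11 of 12 in those made from TTFs, where 24.0% and 21.9% of all genes were called lower. Their summed intensity was 82890 to 86260 on the MEF arrays, 3472 to 3608 on the MEF-derived and 3202 to 4301 on the TTF-derived ieSC arrays. Between the ieSC groups 1 of the 12 differed, against 36.0% of all genes. The part of these markers in the differences of the replication genes from MEFs was not tested.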

How the data were processed

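RNA of 10 samples was hybridised, per the labels, in Cy3 to 1-colour Agilent arrays. The authors deposited log2 intensities for 62976 features on a common scale (column medians 5.759 to 5.782). The submitters' processing notes name limma; background correction and flags are not given in the sources used here. Features carrying 1 symbol numbered 31465, those with none 31511; 29050 accessions matched RefSeq and 3282 symbols were updated. Features above their array's 40th percentile on at least 2 arrays were kept (42617), with the brightest per gene. Groups were compared with limma 3.58.1 in R 4.3.3, with array name as a random block (statmod 1.5.0, correlation 0.606) and Benjamini-Hochberg adjustment over 16650 genes, threshold 0.05. Scripts were tested on simulated data.

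The genes and lists were chosen with earlier results of these data known. Values on every array are given, per role, for up to 3 genes that differ most between the ieSC groups, for genes opposite to their role, and for Gmnn; other lists name the 3 genes with the smallest p there. Alternatives changed the block, filter, feature choice, scaling, order term and moderation, and left out arrays or names. The numbers 1 and 2 in the ieSC names were not stated to mark a shared batch; differences between names correlated at 0.297 over genes.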

Additional observations from a re-analysis of the deposited data

Results flagged for a closer look

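Of the 45 replication genes, 37 differed between TTF-derived and MEF-derived ieSCs, and so differed in their change against the shared MEF arrays. The test was that of the direct comparison of the ieSC groups, which called 36.0% of all genes. With names averaged before the fit, 29 genes were higher and 1 lower, where 14.5% of all genes were called.

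Single arrays stood apart from the other 3 of their group for 2 of the 90 sets of 4 arrays examined. Chance gives about 1 in 20 for independent arrays, which these are not, since arrays come in pairs of 1 name. Orc4 stood at 9.78 on TTF-derived array 2b, above the other 3 of that group. Gins3 stood at 12.86 on MEF-derived array 2b, below the other 3 of that group.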

How the results depend on the processing

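Of the calls made over these 45 genes, 24 of 36 held under all 24 alternatives for MEF-derived ieSCs against MEFs, 30 of 37 under all 25 for the ieSC groups against each other, and 1 of 16 for TTF-derived ieSCs against MEFs. In that last comparison the averaged names left 1 gene higher and 0 lower, and treating arrays as independent gave 5 lower. Averaging also left 1 gene lower between the ieSC groups. The median for MEF-derived ieSCs against MEFs was -0.911 with the mean of all features, -0.999 with the dimmest feature and -0.911 to -0.748 over leave-outs. The median for TTF-derived ieSCs against MEFs ranged over leave-outs from 0.079 to 0.402, that between the ieSC groups from 0.995 to 1.308, and the genes lower there from 1 to 3. A replicate block on the numbers 1 and 2 gave 36 higher and 3 lower between the ieSC groups with a median of 1.184, and changed the count of calls by less than 1.5 times. Repeated quantile normalization moved the median of all genes in TTF-derived ieSCs against MEFs from 0.060 to 0.168. Signs turned for Orc3, at 0.082 (mean of features) and 0.481 (dimmest) in MEF-derived and 0.352 (dimmest) in TTF-derived ieSCs, and for Tyms in MEF-derived ieSCs, at 0.088 with repeated quantile normalization and -0.287 to 0.022 over leave-outs. In TTF-derived ieSCs against MEFs leave-outs turned uncalled differences that spanned -0.066 to 0.189 for Pold2, -0.071 to 0.093 for Rfc1, -0.243 to 0.063 for Pold1, -0.046 to 0.204 for Rpa3, -0.116 to 0.497 for Cdc6, -0.030 to 0.346 for Mcm10, -0.133 to 0.420 for Prim1, -0.028 to 0.216 for Prim2, -0.039 to 0.523 for Pole and -0.113 to 0.393 for Lig1. Leaving out both arrays of a name also added calls: lower in MEF-derived ieSCs for Orc3 (0.0322 to 0.0397 over 3 names), Pola2 and Rfc1 (0.0208 and 0.0285 without MEF-derived name 2). In TTF-derived ieSCs against MEFs it added Mcm6 (0.0204), Pole (0.0109), Pcna (0.0341), Rfc3 (0.0495) and Pold3 (0.0108) as higher without TTF-derived name 1, Pold3 also without MEF-derived name 1 (0.0442), and Gins1 as lower without either MEF-derived name (0.0267 and 0.0243). Pold3 was also added without TTF-derived array 1a (0.0196) and Orc5 without 2a (0.0371). Between the ieSC groups Rpa3 was added without TTF-derived name 2 (0.0411) and Rfc1 without MEF-derived name 2 (0.0205). These are adjusted p-values of the limma fit. Averaging leaves 2 residual degrees of freedom; for the other changes the cause was not tested. Leaving out a MEF array leaves 1, assumed to vary like the other groups. Signal over background could not be read, since the deposited values carry no flags.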

Other observations

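Some cell cycle genes outside the 45 were chosen after their values were seen, because their changes against MEFs in MEF-derived or TTF-derived ieSCs went against most of the replication genes. E2f1, an activator of S-phase genes, stood at 12.27 and 12.31 in MEFs, 11.73, 11.73, 11.42 and 11.59 in MEF-derived ieSCs and 11.62, 11.66, 11.62 and 11.59 in TTF-derived ieSCs. It fell by 0.67 ± 0.13 and 0.67 ± 0.13 against MEFs (adjusted p = 0.00234 and 0.00276). The ieSC groups differed by 0.0045 with a standard error of 0.11 (adjusted p = 0.983). Ccne1, cyclin E1, which drives entry into S phase, fell by 1.38 ± 0.16 in ieSCs made from MEFs and by 2.30 ± 0.16 in those made from TTFs, and was lower in TTF-derived than in MEF-derived ieSCs by a difference of -0.92 ± 0.13 (adjusted p = 5.41e-04).

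Rrm2b, the small subunit of ribonucleotide reductase used outside S phase, stood at 5.32 and 5.37 in MEFs, 7.47, 7.34, 7.33 and 6.83 in MEF-derived ieSCs and 6.70, 6.71, 6.82 and 6.81 in TTF-derived ieSCs. It rose by 1.90 ± 0.25 and 1.42 ± 0.25 (adjusted p = 1.64e-04 and 0.0012), and the ieSC groups did not pass at -0.48 ± 0.20. The Rrm2b values of MEFs lay below the median of all features on each array (5.759 to 5.782). How far the size of these rises depends on the treatment of background was not tested. Mtbp, a partner of the origin-firing factor Ticrr, rose by 0.65 ± 0.12 where the ieSCs came from MEFs and by 1.76 ± 0.12 where they came from TTFs, and was higher by 1.11 ± 0.10 in TTF-derived than in MEF-derived ieSCs (adjusted p = 4.04e-05). Rb1, the retinoblastoma protein that restrains E2F factors, rose by 1.05 ± 0.12 and 0.45 ± 0.12 and was lower in TTF-derived than in MEF-derived ieSCs, at -0.60 ± 0.10 (adjusted p = 0.00143).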
